A study of Homo sapiens with 6 samples.

Results

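The mRNA levels of 10 genes of transforming growth factor beta (TGF-beta), activin and bone morphogenetic protein (BMP) signalling were followed in IMR90 cells, a line of human diploid lung fibroblasts, through oncogene-induced senescence (OIS) with and without RB. The genes were chosen by name: the ligand genes TGFB1, TGFB2, TGFB3, INHBA, BMP2 and BMP4, the receptor genes TGFBR1 and TGFBR2, and the Smad genes SMAD3 and SMAD7. Every probe set annotated to one of them alone was taken, which gave 25 of the 54613 probe sets of the array and 10 of 19775 genes. All cells carried ER:Ras, an oncogenic Ras protein that is switched on by 4-hydroxytamoxifen (4-OHT). siRB1 OIS cells (RB knockdown) had received 100 nM 4-OHT for 6 days and siRNAs against RB1, transfected 4 days before RNA isolation. siControl OIS cells (control knockdown) had received the same 4-OHT treatment and a control siRNA at the same time. Growing cells had received neither 4-OHT nor siRNA, so that Ras activity, 4-OHT and transfection cannot be told apart in a comparison of OIS with growing cells. Each state had 2 biological replicates from independent experiments, with 1 Affymetrix U133 Plus 2.0 array each. The p values rest on the spread between these arrays, combined in the fit with a spread estimated from other probe sets.

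Ligands of this family are secreted dimers that bring type I and type II receptor kinases together on the cell surface. TGF-beta and activin receptors phosphorylate SMAD2 and SMAD3, BMP receptors phosphorylate SMAD1, SMAD5 and SMAD9, and both kinds of Smad join SMAD4 and enter the nucleus. In fibroblasts TGF-beta is known for driving matrix and contractile genes, and TGF-beta family ligands are among the factors that senescent cells secrete.

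The values are MAS5 signals, which are linear fluorescence summaries of a probe set and are compared here only within a probe set. The signals of the 6 arrays had medians of 46 to 51.8 and maxima of 54242 to 64701. RB1, the siRNA target, read 222 and 228 in siRB1 OIS cells, 2578 and 1914 in siControl OIS cells and 2627 and 2528 in growing cells, a log2 fold change of -3.30 (adjusted p = 3.36e-06) for siRB1 against siControl OIS cells. The median log2 signal of all probe sets was 0.11 lower in siRB1 OIS and 0.093 lower in siControl OIS than in growing cells. All 10 fibroblast marker genes lay above the array median on all 6 arrays, and none of 6 epithelial markers did so. Of these fibroblast markers 4 were lower and 1 higher in siRB1 OIS than in growing cells, 7 were lower and 1 higher in siControl OIS than in growing cells, and 3 were higher in siRB1 than in siControl OIS cells. Their summed signal was 184812 to 222173 in siRB1 OIS, 164525 to 165935 in siControl OIS and 239695 to 242447 in growing cells. Of 4 leukocyte markers with a probe set CSF1R lay above the median on all 6 arrays, and the summed signal of the 4 was 194 to 251 in siRB1 OIS, 226 to 257 in siControl OIS and 249 to 256 in growing cells. Of 5 endothelial markers PECAM1 and TEK did, while CDH5 and KDR lay under the median on all 6. TEK, a receptor kinase of endothelial cells, read 1379 and 1211 in siRB1 OIS, 377 and 302 in siControl OIS, and 1250.3 and 1127 in growing cells. All 5 proliferation markers (MKI67, TOP2A, CCNB1, CDK1 and BUB1) were lower in both OIS states than in growing cells. Of these markers 1 was called higher in siRB1 than in siControl OIS cells and none lower. Their summed signal was 2743 to 3765 in siRB1 OIS, 1604 to 2769 in siControl OIS and 15463 to 15556 in growing cells. In these bulk samples fewer cells of a type and less RNA per cell cannot be told apart.

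The most strongly changed genes were BMP2, BMP4, SMAD3 and INHBA. INHBA, which encodes the subunit of activin A, and BMP2 were higher in both OIS states than in growing cells, and so was SMAD7, the inhibitory Smad. TGFB2, BMP4, SMAD3 and TGFBR1 were lower in both. The SMAD3 signal was 3.42-fold higher in siRB1 than in siControl OIS cells, where the brightest probe sets of TGFBR2 and INHBA were also higher and that of TGFB2 was lower. TGFB1 and TGFB3 passed the test in none of the 3 comparisons. Each gene was read first from its brightest probe set, and a difference was called at an adjusted p under 0.05 from limma over all 30139 tested probe sets, which are those that exceeded the median of 2 or more arrays. All 10 genes and 21 of their 25 probe sets were tested. Against growing cells, siRB1 OIS cells had 4 genes higher and 4 lower, while 36.5% of the 13398 tested genes were called. siControl OIS cells had 3 genes higher and 4 lower than growing cells, beside 40.6% of all tested genes. siRB1 against siControl OIS cells gave 3 higher genes and 1 lower one, beside 21.9% of all tested genes. The median log2 fold changes of the 10 genes were -0.040, -0.025 and 0.20 in these 3 comparisons, and those of all tested genes were -0.015, -0.0094 and -0.023. The comparisons share arrays, so their counts are not independent.

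**Figure D1:**
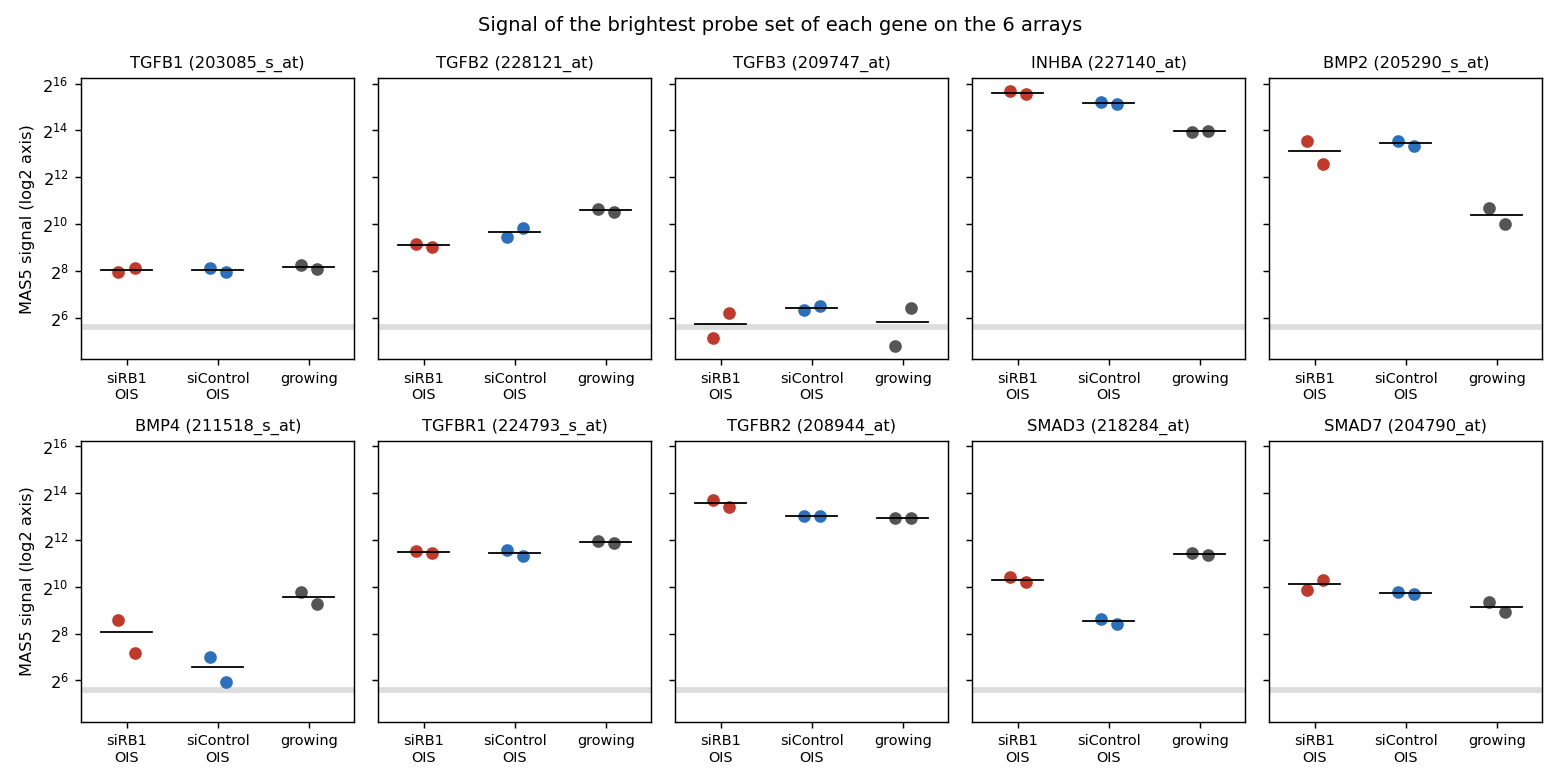
MAS5 signal (log2 axis) of the brightest probe set of each of the 10 genes on the 2 siRB1 OIS, 2 siControl OIS and 2 growing arrays. Points are arrays, black bars are means of 2 arrays, and the grey band spans the array medians of 46 to 51.8. INHBA and BMP2 sit lowest in growing cells, SMAD3 and BMP4 lowest in siControl OIS cells, and TGFB2 lowest in siRB1 OIS cells.

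The sequence before the start site is shown for INHBA, SMAD3 and TGFB2, the members with several bright probe sets on which the comparisons turn. The 250 bases upstream of a RefSeq start site (GRCh38.p14) are written 5′ to 3′ on the gene's strand, with motif matches in capitals. They are chr7:41703091-41703340 (minus strand) for INHBA, chr15:67065352-67065601 (plus strand) for the most upstream of 5 SMAD3 starts, and chr1:218345086-218345335 (plus strand) for TGFB2.
INHBA: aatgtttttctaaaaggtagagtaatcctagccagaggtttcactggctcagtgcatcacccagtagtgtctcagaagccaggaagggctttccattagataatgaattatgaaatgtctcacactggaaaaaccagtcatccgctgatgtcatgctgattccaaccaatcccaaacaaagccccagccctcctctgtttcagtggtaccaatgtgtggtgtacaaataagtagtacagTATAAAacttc
SMAD3: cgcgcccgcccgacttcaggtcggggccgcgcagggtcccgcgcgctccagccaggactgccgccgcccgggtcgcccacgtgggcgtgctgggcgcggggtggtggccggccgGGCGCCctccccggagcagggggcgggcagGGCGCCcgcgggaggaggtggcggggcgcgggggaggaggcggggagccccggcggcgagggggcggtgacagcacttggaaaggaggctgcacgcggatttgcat
TGFB2: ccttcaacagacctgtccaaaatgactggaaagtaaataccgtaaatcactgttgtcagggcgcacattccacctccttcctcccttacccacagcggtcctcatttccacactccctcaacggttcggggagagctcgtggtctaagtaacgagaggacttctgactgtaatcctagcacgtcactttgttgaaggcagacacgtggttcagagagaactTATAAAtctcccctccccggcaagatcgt
In INHBA the capitals mark TATAAA, the core of a TATA box, 11 bases before the start, and in TGFB2 the same letters 29 bases before the start. The INHBA match lies nearer the start than those of TGFB2, TGFB3 (30 bases) and SMAD7 (35 bases). Whether it acts as a TATA box was not tested. The SMAD3 sequence holds GGCGCC, a GC-rich Smad site, 136 and 106 bases before the start. Its GC content was 80.8%, that of TGFB2 was 50.4% and that of INHBA 42.8%, and the median over 35116 promoters was 58%. Of these promoters 10.7% hold TATAAA and 16.4% hold GGCGCC on either strand. Searched in the same way were the AP-1 site TGANTCA (6.57% of promoters), the CRE TGACGTCA (1.65%), the Smad box GTCTAGAC (0.182%), the E2F sites TTTCCCGC (1.39%) and TTTGGCGC (0.55%), and an NF-kB site (0.142%). None of these was found in the 3 sequences, and over 26 promoters of the 9 members with an entry the only further one was TGAGTCA, an AP-1 site 56 bases before another SMAD3 start. A match is a string of letters, and binding was not measured here.

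INHBA showed the largest signals of the group. Its brightest probe set, 227140_at, read 52311 and 48065 on the siRB1 OIS arrays, 38505 and 35985 on the siControl OIS arrays and 15709.8 and 16033 on the growing arrays. The 3 states did not overlap. The log2 fold change was 1.66 (95% interval 1.48 to 1.84, adjusted p = 6.54e-07) for siRB1 OIS and 1.23 (95% interval 1.05 to 1.41, adjusted p = 3.02e-06) for siControl OIS against growing cells. The second probe set, 210511_s_at, read 34309 and 32422 in siRB1 OIS, 29996 and 32913 in siControl OIS and 5330.2 and 6274 in growing cells, which is 5.77-fold higher in siRB1 OIS and 5.43-fold higher in siControl OIS than in growing cells (adjusted p = 1.78e-07 and 1.89e-07). The third, 204926_at, was the dimmest, with 959.7 and 1291 in siRB1 OIS, 2902 and 2401 in siControl OIS and 122 and 157 in growing cells, and had the largest rises, 8.03-fold and 19.1-fold. All 3 probe sets were thus higher in both OIS states than in growing cells.

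Between the OIS states the INHBA probe sets disagreed. The brightest was 1.35-fold higher in siRB1 than in siControl OIS cells (log2 fold change 0.43 (95% interval 0.25 to 0.61, adjusted p = 0.00547)). This call was lost without the first siRB1 OIS array (0.37) and with no trend in the prior variance. The second gave 0.086 (95% interval -0.13 to 0.30, adjusted p = 0.609), with overlapping states. The third was 2.37-fold lower in siRB1 OIS cells, -1.25 (95% interval -1.66 to -0.83, adjusted p = 0.00206). On the siRB1 OIS arrays, with maxima of 64701 and 58199.5, 45 and 46 probe sets were brighter than the brightest of INHBA. On the siControl OIS arrays, with maxima of 54241.6 and 61040.9, 96 and 168 were brighter, and on the growing arrays 538 and 539. The mean of the 3 probe sets gave -0.24 (adjusted p = 0.122), so no direction of INHBA between the OIS states is given.

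BMP2, a ligand of the BMP branch, rose in both OIS states. Its brightest probe set, 205290_s_at, read 11799.7 and 6149.8 in siRB1 OIS, 12054 and 10352 in siControl OIS and 1644 and 1013 in growing cells. All 4 OIS arrays lay above both growing arrays, while the siRB1 OIS arrays lay far apart. The log2 fold change was 2.72 (95% interval 2.08 to 3.37, adjusted p = 1.02e-04) for siRB1 OIS and 3.11 (95% interval 2.47 to 3.76, adjusted p = 3.11e-05) for siControl OIS against growing cells. The second probe set, 205289_at, read 9489.7 and 5824 in siRB1 OIS, 11249.6 and 10117 in siControl OIS and 1476 and 1003 in growing cells, with 2.61 and 3.13 in the same comparisons. Between the OIS states the first gave -0.39 (95% interval -1.04 to 0.25, adjusted p = 0.415) and the second -0.52 (95% interval -1.03 to -0.014, adjusted p = 0.156). The second was called without the first siRB1 OIS array (-0.87, adjusted p = 0.0444), and the first had the opposite sign without the second siRB1 OIS array (0.079, adjusted p = 0.883), so no direction of BMP2 between the OIS states is given.

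BMP4, another BMP ligand, moved against BMP2. Its only probe set, 211518_s_at, read 386 and 145 in siRB1 OIS, 129 and 60.5 in siControl OIS and 884 and 616 in growing cells. The states did not overlap, though the arrays of each OIS state lay far apart. BMP4 was 8.35-fold lower in siControl OIS than in growing cells (log2 fold change -3.06 (95% interval -4.11 to -2.02, adjusted p = 7.23e-04)) and 3.12-fold lower in siRB1 OIS than in growing cells (-1.64 (95% interval -2.69 to -0.60, adjusted p = 0.0244)). The second call was lost without the first growing array (-1.38, adjusted p = 0.136) and without the second siRB1 OIS array (-0.94, adjusted p = 0.17). siRB1 against siControl OIS cells gave 1.42 (95% interval 0.38 to 2.46, adjusted p = 0.0668), which did not pass. It passed without the first siControl OIS array (1.97, adjusted p = 0.0407), without the second siRB1 OIS array (2.13, adjusted p = 0.022) and with the stricter filter on dim probe sets (1.42, adjusted p = 0.0484).

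The TGF-beta ligand genes differed from each other. TGFB2 was lowest in siRB1 OIS cells in all 3 of its tested probe sets. The brightest, 228121_at, read 562 and 527 in siRB1 OIS, 702 and 917 in siControl OIS and 1615 and 1473 in growing cells, with no overlap between states. It was 2.83-fold lower in siRB1 OIS (log2 fold change -1.50 (95% interval -1.83 to -1.17, adjusted p = 6.58e-05)) and 1.92-fold lower in siControl OIS than in growing cells (-0.94 (95% interval -1.27 to -0.61, adjusted p = 8.73e-04)). The other tested probe sets passed the test in siRB1 OIS against growing cells and not in siControl OIS against growing cells. Probe set 209909_s_at read 441 and 345 in siRB1 OIS, 656 and 612 in siControl OIS and 807 and 656 in growing cells, a log2 fold change of -0.90 (adjusted p = 0.00301) for siRB1 OIS and -0.20 (adjusted p = 0.404) for siControl OIS against growing cells. Probe set 220407_s_at read 122 and 110.3 in siRB1 OIS, 176 and 190.5 in siControl OIS and 216 and 225 in growing cells, with -0.92 (adjusted p = 0.0106) and -0.27 (adjusted p = 0.394), the first of these calls lost without either growing array (adjusted p = 0.0569 and 0.0725). Probe sets ending in _s_at can match several transcripts of a gene.

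Between the OIS states the 3 TGFB2 probe sets gave log2 fold changes of -0.56 (adjusted p = 0.0298), -0.70 (adjusted p = 0.0202) and -0.66 (adjusted p = 0.071), all towards less TGFB2 in siRB1 OIS cells. With no trend in the prior variance the brightest was not called. The call of the brightest was lost without any one of 5 arrays (adjusted p = 0.0561 to 0.132, with -0.37 without the second siControl OIS array) and held without the first siControl OIS array. That of 209909_s_at was lost without the first siControl OIS (adjusted p = 0.0818), the second siControl OIS (0.0525) or the second siRB1 OIS array (0.11). The remaining probe sets, 220406_at and 209908_s_at, did not pass the filter and read 0.8 to 62.4 on the 6 arrays.

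**Figure D2:**
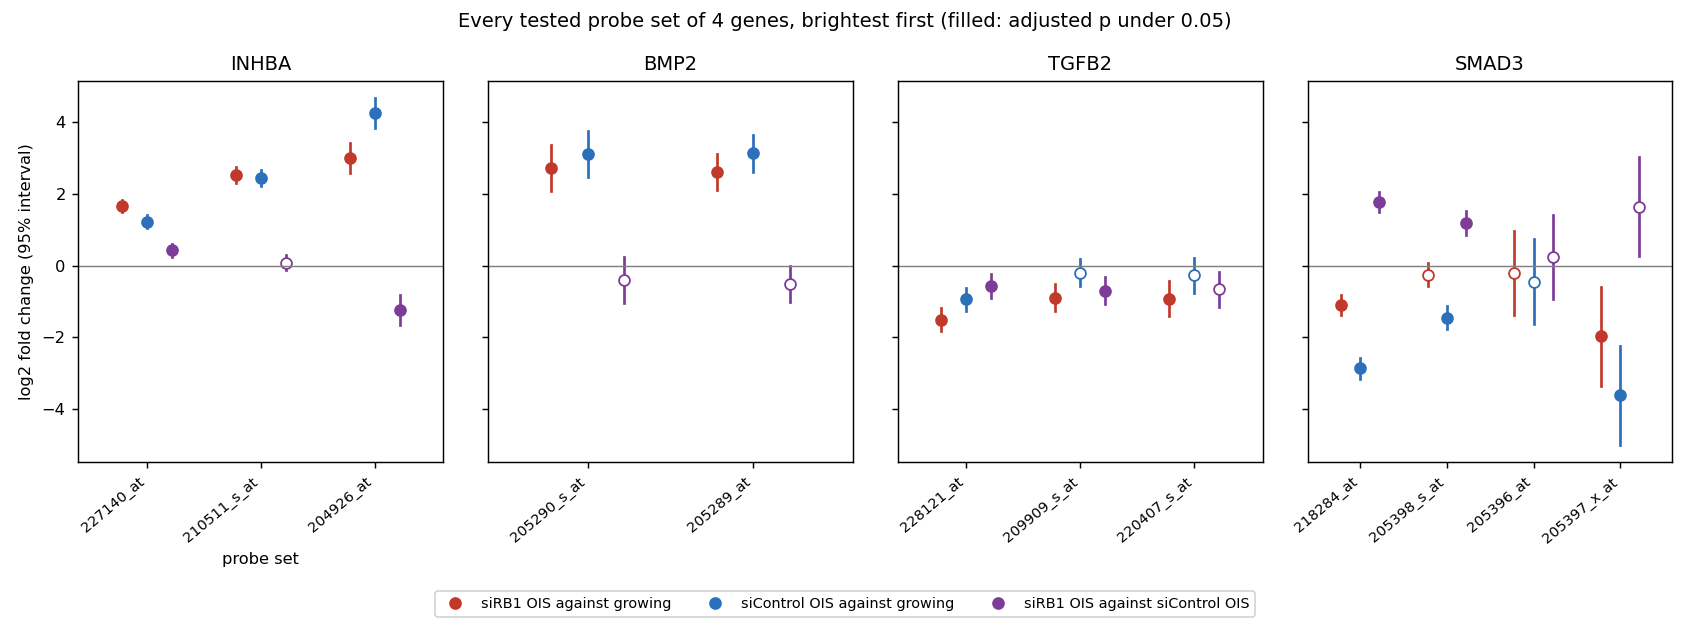
Log2 fold change (vertical axis) of every tested probe set of INHBA, BMP2, TGFB2 and SMAD3, with 95% intervals from limma (n = 2 arrays per state), for siRB1 OIS against growing (red), siControl OIS against growing (blue) and siRB1 OIS against siControl OIS cells (purple). Filled points passed at an adjusted p under 0.05. The INHBA probe sets spread between 0.43 and -1.25 in the purple comparison, while those of SMAD3 that passed lie at 1.77 and 1.19.

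TGFB1, the most studied ligand of the family, read 248 and 283 in siRB1 OIS, 279 and 250.1 in siControl OIS and 303 and 275 in growing cells in its brightest probe set, 203085_s_at. The 3 states overlapped. The log2 fold change was -0.13 (95% interval -0.53 to 0.28, adjusted p = 0.644) for siRB1 OIS and -0.13 (95% interval -0.53 to 0.28, adjusted p = 0.635) for siControl OIS against growing cells, and 0.0012 (95% interval -0.40 to 0.41, adjusted p = 0.998) for siRB1 against siControl OIS cells. Its other probe set, 203084_at, read 6.3 to 66 and was not tested. TGFB3 lay near the array median in its brightest probe set, 209747_at, with 34.7 and 72.8 in siRB1 OIS, 79.9 and 89.5 in siControl OIS and 27.5 and 86.2 in growing cells. Its log2 fold changes were 0.046 (adjusted p = 0.967) for siRB1 OIS and 0.80 (adjusted p = 0.372) for siControl OIS against growing cells, and -0.75 (adjusted p = 0.48) for siRB1 against siControl OIS cells. The intervals of TGFB3 reached from -2.16 to 2.21 over the 3 comparisons, so a change was not detectable at this signal. Its second probe set, 1555540_at, read 3.9 to 40.6 and was not tested.

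The receptor genes moved little. TGFBR1, the type I receptor kinase, read 2947 and 2788 in siRB1 OIS, 3079 and 2510.1 in siControl OIS and 3932 and 3768 in growing cells in probe set 224793_s_at. All 4 OIS arrays lay under both growing arrays. It was 1.34-fold lower in siRB1 OIS (log2 fold change -0.43 (95% interval -0.68 to -0.18, adjusted p = 0.017)) and 1.38-fold lower in siControl OIS than in growing cells (-0.47 (95% interval -0.72 to -0.22, adjusted p = 0.00918)), and 0.044 (95% interval -0.21 to 0.29, adjusted p = 0.838) between the OIS states. The siRB1 OIS call was lost without any one siRB1 OIS or growing array (adjusted p = 0.0516 to 0.117) and with median centring (-0.31, adjusted p = 0.0938), and the siControl OIS call without the first growing array (-0.44, adjusted p = 0.076). Dim probe sets of TGFBR1 gave no call. Probe set 206943_at read 13.7 to 73.7, and 236561_at, which passed the filter through the growing arrays alone, read 39.3 and 4.8 in siRB1 OIS, 37.9 and 6.2 in siControl OIS and 101 and 63.4 in growing cells (adjusted p = 0.174 and 0.193 for siRB1 and siControl OIS against growing cells).

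TGFBR2, the type II receptor kinase that binds TGF-beta first, was higher after RB depletion. Probe set 208944_at read 13403 and 10988 in siRB1 OIS, 8275 and 8430 in siControl OIS and 7913 and 7903 in growing cells. Both siRB1 OIS arrays lay above the other 4. The log2 fold change was 0.54 (95% interval 0.31 to 0.76, adjusted p = 0.00602) for siRB1 against siControl OIS cells and 0.62 (95% interval 0.39 to 0.84, adjusted p = 0.00135) against growing cells, and both calls held with each array left out in turn. The first was lost with no trend in the prior variance (0.54, adjusted p = 0.107) and with the probe sets averaged (0.30, 0.36), and the second with the probe sets averaged (0.41, 0.166). siControl OIS against growing cells gave 0.079 (95% interval -0.15 to 0.30, adjusted p = 0.594). The dim probe set 207334_s_at read 38.6 to 80.9, with overlapping states and no call.

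SMAD3, the transcription factor that TGF-beta and activin receptors activate, had the largest difference between the OIS states of the 10 genes. Its brightest probe set, 218284_at, read 1355 and 1179.6 in siRB1 OIS, 398 and 344 in siControl OIS and 2799 and 2598 in growing cells. The 3 states lay well apart, with siControl OIS lowest and growing cells highest. SMAD3 was 7.29-fold lower in siControl OIS than in growing cells (log2 fold change -2.87 (95% interval -3.15 to -2.58, adjusted p = 3.53e-07)) and 2.13-fold lower in siRB1 OIS than in growing cells (-1.09 (95% interval -1.38 to -0.81, adjusted p = 1.85e-04)). siRB1 against siControl OIS cells gave 1.77 (95% interval 1.49 to 2.06, adjusted p = 3.62e-05). These 3 calls of 218284_at held in every alternative in which they were run, including the mean of the 4 probe sets and each array left out.

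The second SMAD3 probe set, 205398_s_at, read 704 and 747 in siRB1 OIS, 345 and 293 in siControl OIS and 919 and 818 in growing cells. It gave 1.19 (95% interval 0.87 to 1.51, adjusted p = 6.96e-04) for siRB1 against siControl OIS cells and -1.45 (95% interval -1.77 to -1.12, adjusted p = 5.05e-05) for siControl OIS against growing cells. Its difference between siRB1 OIS and growing cells, -0.26 (95% interval -0.58 to 0.065, adjusted p = 0.213), did not pass. Probe set 205397_x_at, of a type that can also bind related sequences, read 61 and 27.6 in siRB1 OIS, 15.1 and 11.3 in siControl OIS and 161 and 161 in growing cells. It was at least 3.39-fold lower in siControl OIS than in growing cells, a bound set by the array median, under which both siControl OIS arrays lay. The limma fit used the values under the median as they stood (log2 fold change -3.62, adjusted p = 0.00144), so that p does not belong to the bound. Against growing cells siRB1 OIS cells gave -1.97 (adjusted p = 0.0366), a call lost without either growing array (adjusted p = 0.197 and 0.205) or the second siRB1 OIS array (-1.40, 0.153). It passed the filter through both growing arrays and the first siRB1 OIS array. Probe set 205396_at read 34.9 to 70.7 with no call. TEK, named above, was also lowest in siControl OIS cells, and so were the fibroblast markers LUM, with 10657 and 7561 in siRB1 OIS, 3256 and 2508 in siControl OIS and 9799.7 and 10340.3 in growing cells, and COL3A1, with 25317 and 16389 in siRB1 OIS, 8873 and 7594 in siControl OIS and 26259 and 27508 in growing cells. Not all 10 fibroblast markers shared this order, and 3 were called higher in siRB1 than in siControl OIS cells. PDGFRA was lowest in siRB1 OIS cells, with 5528 and 4359.5 there and 6329 and 5787 in siControl OIS cells. FAP was lowest in growing cells, with 2728 and 3155. LUM, COL3A1, PDGFRA and FAP are named after their values were seen, and the part of these markers in the SMAD3 result was not tested.

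SMAD7, which blocks the receptors and is itself a known target of TGF-beta, rose. Its only probe set, 204790_at, read 931 and 1263 in siRB1 OIS, 865 and 825 in siControl OIS and 659 and 479 in growing cells. All 4 OIS arrays lay above both growing arrays. The log2 fold change was 0.95 (95% interval 0.53 to 1.37, adjusted p = 0.00408) for siRB1 OIS and 0.59 (95% interval 0.17 to 1.01, adjusted p = 0.0359) for siControl OIS against growing cells, and 0.36 (95% interval -0.06 to 0.78, adjusted p = 0.238) between the OIS states. The siControl OIS call was lost without the second growing array (0.36), the first siControl OIS array (0.55) or the second siControl OIS array (0.62). It was also lost with no filter (adjusted p = 0.0555), with 1 averaged value per gene (0.0572) and with no trend in the prior variance (0.144). The siRB1 OIS call was lost with no trend (adjusted p = 0.0562).

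**Figure D3:**
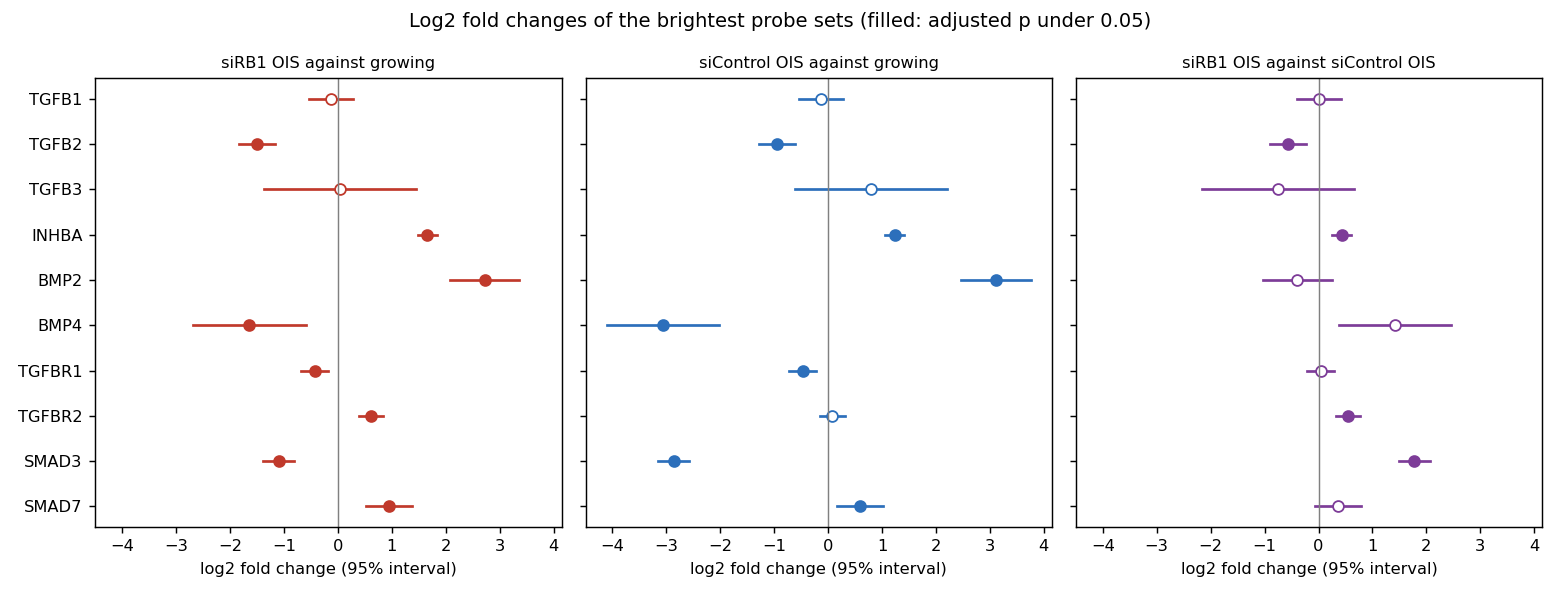
Log2 fold change (horizontal axis) of the brightest probe set of each of the 10 genes in the 3 comparisons, with 95% intervals from limma (n = 2 arrays per state). Filled points passed at an adjusted p under 0.05. BMP2 lies at 2.72 for siRB1 OIS and 3.11 for siControl OIS and BMP4 at -1.64 and -3.06 against growing cells, and SMAD3 lies at 1.77 between the OIS states.

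Across all 25 probe sets, 21 were tested. Against growing cells, 7 were higher and 7 lower in siRB1 OIS cells, while 14% of all tested probe sets were higher and 16.5% lower (30.5% called). siControl OIS against growing cells gave 6 of each kind, beside 15.8% and 18.3% (34.1% called). siRB1 against siControl OIS cells gave 4 higher and 3 lower ones, beside 8.96% and 7.93% (16.9% called). The probe sets of SMAD3, BMP2 and TGFB2 that passed did so in 1 direction in each comparison, and INHBA was the member whose called probe sets had opposite signs, in siRB1 against siControl OIS cells.

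The genes whose signals followed BMP2 and BMP4 most closely over the 6 arrays were looked up among 13388 other tested genes, as a description. For BMP2 they were IRGQ (Pearson r = 0.997 over 6 arrays of log2 signal), STK4 (0.996) and MAP3K2-DT (0.994). STK4, a kinase of the Hippo pathway, read 2016 and 1694 in siRB1 OIS, 1902 and 1966 in siControl OIS and 1098 and 959.9 in growing cells. For BMP4 they were TRIM38 (r = 0.997) and GLG1 (0.995), with 1 further gene not reported here. GLG1, a Golgi glycoprotein, read 2179.9 and 1861 in siRB1 OIS, 1898 and 1669.5 in siControl OIS and 2547 and 2336 in growing cells. Arrays of a state share their treatment, so 6 arrays are few independent points.

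Another 88 genes of the pathway were read in 6 lists written from background knowledge, with 6 of them not analysed here because no probe set names them alone. They are the other ligands, other receptors, extracellular inhibitors and latency proteins, other Smads and their regulators, TGF-beta targets and BMP targets, and BAMBI, LTBP2, PMEPA1, SKIL, SMAD6 and SMAD9 stand in a pair of lists each. Among all tested genes, 18% were higher and 18.4% lower in siRB1 OIS than in growing cells, 19.9% and 20.7% in siControl OIS than in growing cells, and 11.6% and 10.3% in siRB1 than in siControl OIS cells. These shares stand beside the counts of each list below, and the lists themselves were not tested.

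Of 9 tested other ligands, GDF15 was higher and INHBE lower in siRB1 OIS than in growing cells, and GDF15 and GDF11 were higher and GDF5 and INHBE lower in siControl OIS than in growing cells. GDF15, a stress-induced ligand, read 35419.5 and 32059 in siRB1 OIS, 14627 and 14677 in siControl OIS and 2430.1 and 2418 in growing cells. Its log2 fold change was 3.80 (95% interval 3.62 to 3.98, adjusted p = 5.02e-09) for siRB1 OIS and 2.60 (95% interval 2.41 to 2.78, adjusted p = 4.95e-08) for siControl OIS against growing cells, and 1.20 (95% interval 1.02 to 1.38, adjusted p = 2.49e-05) between the OIS states. GDF5, a ligand of joint and skeletal development, changed by -2.07 (adjusted p = 0.00119) in siControl OIS against growing cells and 1.15 (adjusted p = 0.047) in siRB1 against siControl OIS cells, the last call lost without each array but the first siControl OIS one (adjusted p = 0.0598 to 0.231). INHBE, an inhibin beta chain, gave -1.26 (adjusted p = 0.0379) in siRB1 OIS and -1.60 (adjusted p = 0.0116) in siControl OIS against growing cells, and GDF11, close to myostatin, 0.52 (adjusted p = 0.0355) in siControl OIS against growing cells. The INHBE call in siRB1 OIS cells was lost without either growing array or the second siRB1 OIS array (adjusted p = 0.0979 to 0.201), that in siControl OIS cells without the second growing (0.0879) or the second siControl OIS array (0.0613), and the GDF11 call without any growing or siControl OIS array (0.0724 to 0.157).

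Of 9 tested other receptors and co-receptors, ACVR2B was higher and BMPR2 and ACVR1 lower in siRB1 OIS than in growing cells, and ACVR2B was higher and BMPR1B, BMPR2 and TGFBR3 lower in siControl OIS than in growing cells. BMPR2, the type II BMP receptor, read 3488 and 2739.5 in siRB1 OIS, 3910 and 3377 in siControl OIS and 6219 and 6193 in growing cells, with log2 fold changes of -1.01 (adjusted p = 2.72e-04) and -0.77 (adjusted p = 0.00106) against growing cells. ACVR2B, a type II activin receptor, gave 1.58 (adjusted p = 5.40e-04) in siRB1 OIS and 1.41 (adjusted p = 8.48e-04) in siControl OIS against growing cells. BMPR1B, a type I BMP receptor, was higher in siRB1 than in siControl OIS cells at 1.33 (adjusted p = 0.0183) and ENG, the co-receptor endoglin, lower at -0.76 (adjusted p = 0.0213). A dimmer ENG probe set gave 1.54 (adjusted p = 0.045), the opposite direction, a call lost without any array but the first siControl OIS one (adjusted p = 0.0663 to 0.193). The lower BMPR1B in siControl OIS than in growing cells was lost as a call without either growing array (-0.83, adjusted p = 0.18, and -1.21, 0.0531), without the first siControl OIS array (-0.67, 0.163) and with quantile normalization (-0.87, 0.0538). The BMPR1B call between the OIS states was lost without the first siControl OIS array (0.99, adjusted p = 0.0852) or the second siRB1 OIS array (1.06, 0.121), and the ENG call without the second siControl OIS (-0.66, 0.105) or the second siRB1 OIS array (-0.52, 0.125). ACVR1 and TGFBR3 are named after their values were seen, since they complete these counts, and their values moved little (ACVR1 -0.28 (adjusted p = 0.029) in siRB1 OIS, TGFBR3 -0.42 (adjusted p = 0.0437) in siControl OIS against growing cells, the first lost without any growing or siRB1 OIS array and the second without any single array). Averaging the probe sets of each gene gave -0.058 for ACVR2B and 0.64 for BMPR1B in siControl OIS against growing cells and 0.39 for ENG in siRB1 against siControl OIS cells, none of them called (adjusted p = 0.92, 0.407 and 0.286).

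Of 17 tested extracellular inhibitors and latency proteins, 7 were lower and 2 (BAMBI and NBL1) higher in siRB1 OIS than in growing cells, and 9 were lower and 1 (BAMBI) higher in siControl OIS than in growing cells. FST encodes follistatin, which binds activin. It read 1512 and 1934 in siRB1 OIS, 818 and 1267 in siControl OIS and 11104 and 10178 in growing cells, and the log2 fold changes against growing cells were -2.64 (adjusted p = 1.00e-05) in siRB1 OIS and -3.38 (adjusted p = 1.44e-06) in siControl OIS cells. DCN, the proteoglycan decorin, which binds TGF-beta, read 3188 and 2774 in siRB1 OIS, 3202 and 3342 in siControl OIS and 21450.4 and 20994 in growing cells, with -2.84 (adjusted p = 7.16e-08) in siRB1 OIS and -2.70 (adjusted p = 7.98e-08) in siControl OIS against growing cells. FSTL3, a relative of follistatin, gave -1.87 (adjusted p = 2.64e-04) in siRB1 OIS and -1.64 (adjusted p = 4.59e-04) in siControl OIS against growing cells, and NOG, the BMP antagonist noggin, -1.22 (adjusted p = 0.00374) and -1.79 (adjusted p = 3.03e-04). Higher in siRB1 than in siControl OIS cells were 4 of these genes, with none lower. They were FST (0.75 (adjusted p = 0.0263), with its other probe sets at 0.79 and 1.00), THBS1 (0.93 (adjusted p = 0.00128)), a thrombospondin that can activate latent TGF-beta, LTBP1 (0.66 (adjusted p = 0.0017)), which holds latent TGF-beta in the matrix, and NBL1 (0.87 (adjusted p = 0.0184)), a BMP antagonist. The FST call was lost without the first siControl OIS array (0.43, adjusted p = 0.0982) or the second siRB1 OIS array (0.57, 0.162), and the NBL1 call without either siControl OIS array or the second siRB1 OIS array (0.0548 to 0.103). The BAMBI call in siRB1 OIS against growing cells was lost with no trend in the prior variance (0.48, adjusted p = 0.0889). It was also lost without either growing array or the first siRB1 OIS array. THBS1, LTBP1, NBL1 and BAMBI are named after their values were seen.

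Of 16 tested Smads and regulators, 6 were higher and 1 (SMAD9) lower in siRB1 OIS than in growing cells, and 6 were higher and 4 (SMAD9, SMAD4, SMAD5 and HIPK2) lower in siControl OIS than in growing cells. SMAD9, a Smad of the BMP branch, read 305 and 198 in siRB1 OIS, 137 and 113 in siControl OIS and 1177 and 992 in growing cells, with -2.14 (adjusted p = 1.16e-04) in siRB1 OIS and -3.12 (adjusted p = 7.87e-06) in siControl OIS against growing cells. Its difference between the OIS states was 0.98 (95% interval 0.46 to 1.49, adjusted p = 0.0185), lost without the second siControl OIS array (0.84, adjusted p = 0.0848) or the first siRB1 OIS array (0.67, 0.118). SMAD4, the shared Smad, gave -0.56 (adjusted p = 0.00429), SMAD5, of the BMP branch, -0.71 (adjusted p = 0.00397) and HIPK2, a kinase, -0.33 (adjusted p = 0.0329) in siControl OIS against growing cells. The SMAD4 call was lost without the second growing array (adjusted p = 0.0539), and the HIPK2 call without either growing array (0.229 and 0.0786) or the second siControl OIS array (0.135). SMAD1, of the BMP branch, read 4232 and 3564 in siRB1 OIS, 3666 and 2243 in siControl OIS and 1290.3 and 1387 in growing cells and was higher by 1.54 and 1.10. TGIF1, a Smad co-repressor, rose by 1.00 and 0.98 and PMEPA1, a target of TGF-beta that restrains it, by 0.85 and 0.63 on the log2 scale. In siRB1 against siControl OIS cells SMAD9 was higher, while SMURF2 (-0.27 (adjusted p = 0.043)) and STRAP (-0.34 (adjusted p = 0.0143)) were lower. The STRAP call was lost without the first siRB1 OIS array (adjusted p = 0.0916). The SMURF2 call was lost without any array but the first siControl OIS one (adjusted p = 0.0664 to 0.195) while the mean of its probe sets gave 0.15 (0.365). SMAD4, SMAD5, HIPK2, SMURF2 and STRAP are named after their values were seen.

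Of 15 tested TGF-beta target genes, 5 were higher and 6 lower in siRB1 OIS than in growing cells, and 4 were higher and 7 lower in siControl OIS than in growing cells. The lower ones in both were TAGLN, CCN2, ACTA2, COL1A2, TPM1 and LOX, genes of contraction and matrix. ACTA2, smooth muscle actin, gave -1.56 (adjusted p = 6.27e-06) in siRB1 OIS and -1.72 (adjusted p = 2.40e-06) in siControl OIS against growing cells from its brightest probe set. With its probe sets averaged neither was called, at 0.55 (adjusted p = 0.605) in siRB1 OIS and -0.97 (adjusted p = 0.338) in siControl OIS cells. TAGLN, a smooth muscle actin-binding protein, read 4495 and 5347 in siRB1 OIS, 2192 and 2855 in siControl OIS and 14941 and 15527 in growing cells, with log2 fold changes of -1.64 (adjusted p = 1.96e-05) and -2.61 (adjusted p = 7.26e-07). CCN2, a matricellular protein, read 6864 and 6061 in siRB1 OIS, 5278 and 5926 in siControl OIS and 24096 and 23648 in growing cells, with -1.89 (adjusted p = 9.08e-07) and -2.09 (adjusted p = 3.65e-07). POSTN, the matrix protein periostin, was higher at 1.90 (adjusted p = 1.18e-05) and 1.31 (adjusted p = 8.23e-05), and so was CDKN2B, the CDK inhibitor p15, at 1.42 (adjusted p = 6.49e-04) and 1.95 (adjusted p = 6.92e-05). PMEPA1 and SKIL were the other higher ones in both. Their siControl OIS calls were lost without the second growing array (0.45 and 0.38) and with no trend in the prior variance (adjusted p = 0.058 and 0.114). The SKIL call in siRB1 OIS cells was lost without the second growing (0.49) or the first siRB1 OIS array (0.53) and with no trend (adjusted p = 0.08). Another PMEPA1 probe set gave -0.42 (adjusted p = 0.0677) in siRB1 OIS against growing cells. In siRB1 against siControl OIS cells 3 targets were higher and none lower: TAGLN (0.97 (adjusted p = 0.00128)), POSTN (0.59 (adjusted p = 0.0201)) and NOX4 (1.42 (adjusted p = 4.29e-04)), an NADPH oxidase. The POSTN call was lost without either siControl OIS array (0.61, adjusted p = 0.0579, and 0.56, 0.0775) or the first siRB1 OIS array (0.42, 0.149). NOX4 had 0.82 (adjusted p = 0.00344) in siRB1 OIS and -0.60 (adjusted p = 0.0155) in siControl OIS against growing cells, the second lost without either growing array (0.0707 and 0.0848) or the first siControl OIS array (0.0754). ACTA2, COL1A2, TPM1, LOX, SKIL and NOX4 are named after their values were seen.

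Of 8 tested BMP target genes, 4 (ID1, ID2, ID3 and SMAD9) were lower and 1 (BAMBI) higher in siRB1 OIS than in growing cells, and 5 were lower and 1 higher in siControl OIS than in growing cells. The BAMBI call in siRB1 OIS cells was lost under several alternatives, as given above. The ID genes encode inhibitors of basic helix-loop-helix factors. ID2 read 478 and 456 in siRB1 OIS, 532 and 691 in siControl OIS and 5523 and 4928 in growing cells, with log2 fold changes of -3.48 (adjusted p = 2.63e-07) and -3.11 (adjusted p = 4.02e-07) against growing cells. ID3 read 1519 and 1627 in siRB1 OIS, 672 and 667 in siControl OIS and 4851 and 3234 in growing cells, with -1.33 (adjusted p = 2.94e-04) and -2.56 (adjusted p = 3.54e-06) against growing cells. ID1 gave -1.91 (adjusted p = 0.00264) in siRB1 OIS and -1.78 (adjusted p = 0.0032) in siControl OIS, and ATOH8, named after its values were seen, was the fifth lower one in siControl OIS cells (-1.85 (adjusted p = 0.00927), and 0.0571 without the second growing array). The 5 proliferation markers were lower in the same comparisons, and their part in these results was not tested. Between the OIS states ID3 (1.23 (95% interval 0.86 to 1.61, adjusted p = 0.00128)) and SMAD9 were higher in siRB1 OIS cells and no BMP target was lower, while ID2 gave -0.38 (95% interval -0.70 to -0.06, adjusted p = 0.103) and ID1 -0.13 (95% interval -0.91 to 0.65, adjusted p = 0.852).

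**Figure D4:**
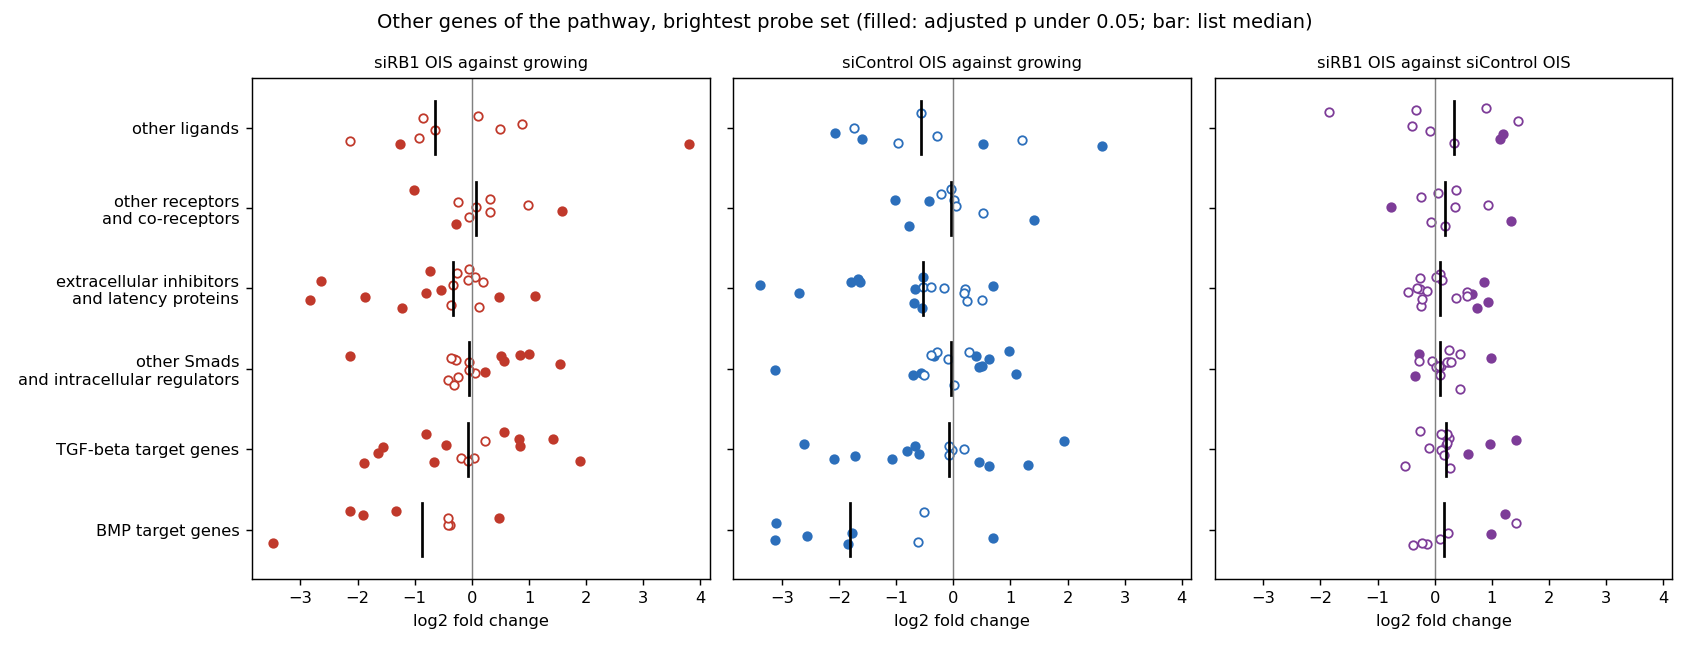
Log2 fold change (horizontal axis) of the tested genes of 6 pathway lists (vertical axis), each from its brightest probe set, in the 3 comparisons. Points are genes, filled where the adjusted p was under 0.05, and bars are list medians. The BMP targets have medians of -0.88 for siRB1 OIS and -1.81 for siControl OIS against growing cells.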

How the data were processed

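RNA from 2 biological replicates per state was hybridized by the authors to Affymetrix U133 Plus 2.0 arrays. The deposited intensities are MAS5 signals that the authors computed in Affymetrix Expression Console (versions not given in the sources used here). They are linear, cover 54613 probe sets, run from 0.1 to 64701 and carry no detection calls. The number of arrays limits the precision. The log2 of each signal was used as it stood. Probe sets were named from the platform table (41091 name 1 gene, 1801 several and 11721 none). The 30139 probe sets that exceeded the median of 2 or more of the 6 arrays were fitted in limma 3.58.1 (R 4.3.3), with 1 mean per state, all arrays in 1 model and a trended prior variance. Benjamini-Hochberg adjustment ran over all tested probe sets (threshold 0.05). A probe set under the array median on both arrays of one state has only a bound there, and its fold is taken against that median. A gene's brightest probe set has the highest mean log2 signal among those naming it alone. The settings varied were the scaling (quantile normalization or median centring), an offset of 12.5, the filter (none, or percentile 70), 1 brightest or 1 averaged value per gene, an untrended prior, a fit of the compared states alone, the replicate number as a block, and each array in turn left out.

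Named were all members with every probe set, up to 4 called genes of each list with the largest change, RB1, and the 3 genes most like the members with the largest changes in siControl OIS against growing cells. One gene found by the likeness rule is not reported here. Members, lists and rules were chosen with earlier results of these data known. Promoter sequences from RefSeq were matched for 9 of the 10 members, and the BMP2 promoter was not analysed here.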

Additional observations from a re-analysis of the deposited data

How the results depend on the processing

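The number of the 10 genes called was unchanged or within 1.5 times under most alternatives. In siRB1 OIS against growing cells it was 8, and 5 with no trend in the prior variance and 4 with the probe set mean of a gene. In siControl OIS against growing cells it was 7, and 4 with that mean. In siRB1 against siControl OIS cells it was 4, and 1 both with no trend and with that mean. SMAD3 was the gene left in both, so the calls of INHBA, TGFBR2 and TGFB2 were lost there. With 1 array left out these numbers ran from 6 to 8, from 6 to 7 and from 2 to 5, the lowest of the last without the first siRB1 OIS array. The probe sets called among all tested were 9179 in siRB1 OIS against growing, 10270 in siControl OIS against growing and 5090 in siRB1 against siControl OIS cells. They were 5033, 5586 and 3238 with 1 probe set per gene (13398 tested) and 3039, 3584 and 1649 with the mean. No trend gave 6113 in siRB1 OIS against growing and 1141 in siRB1 against siControl OIS cells. With 1 array left out they ran from 5758 to 9833 in siRB1 OIS against growing (the lowest values, 5758 and 5822, without a growing array), from 7023 to 10096 in siControl OIS against growing, and from 2653 to 4316 in siRB1 against siControl OIS cells (2653 without the first siRB1 OIS array). Of the calls in siRB1 OIS against growing cells 46% were higher, and 58% after median centring, which shifted the median by 0.11.

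The labels do not say whether same-numbered arrays belong to the same experiment. Deviations of same-numbered arrays correlated at 0.036, -0.014 and 0.010 over 30139 probe sets. No pairing by replicate number thus showed over all probe sets, which does not settle it for single genes. The fit with the replicate number as a block called 9500, 10550 and 5578 probe sets in the 3 comparisons, and 8, 7 and 5 of the 10 genes, with BMP4 added in siRB1 against siControl OIS cells (1.42, adjusted p = 0.00298). It also called the second BMP2 probe set there (-0.52, adjusted p = 0.0183).

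Over the 63 log2 fold changes of member probe sets, 837 of the values under alternatives kept direction and call, 48 lost the call, 6 gained one and 30 changed sign, and for the other named genes 1896, 165, 36 and 33 did so. Of the 48 lost calls of members, 24 were lost with 1 array left out, 10 with no trend and 9 with the probe set mean. TGFBR2 208944_at lost its call between the OIS states with no trend (0.54, adjusted p = 0.107) and with the mean (0.30, 0.36), and that in siRB1 OIS against growing cells with the mean (0.41, 0.166). SMAD3 lost none. The only called member value that changed sign was INHBA 227140_at in siRB1 against siControl OIS cells, -0.24 with the mean of its probe sets. Changes of sign among values that were not called with that mean were TGFB1 (0.25 in siRB1 OIS and 0.15 in siControl OIS against growing cells), TGFB3 (-0.24 in siRB1 OIS against growing cells) and TGFBR1 (-0.30 in siRB1 against siControl OIS cells). Quantile normalization turned TGFB1 to 0.026 in siControl OIS against growing and -0.042 in siRB1 against siControl OIS cells. Among the other named genes the mean gave -0.058 for ACVR2B, 0.64 for BMPR1B and -0.39 for ENG in siControl OIS against growing cells, 0.0029 for ENG in siRB1 OIS against growing cells, and 0.39 for ENG, -0.29 for TGIF1 and -0.027 for PMEPA1 in siRB1 against siControl OIS cells. Of these, ACVR2B and BMPR1B in siControl OIS against growing cells and ENG between the OIS states were called from the brightest probe set. For genes named after their values were seen the mean gave -0.38 for SMURF2 and -0.085 for STRAP in siControl OIS, and -0.23 for SMURF2, -0.31 for STRAP, -0.13 for LTBP1, 0.00071 for SMAD5 and 0.55 for ACTA2 in siRB1 OIS against growing cells, and 0.15 for SMURF2, -0.24 for SMAD4 and -0.29 for LOX between the OIS states. Quantile normalization gave 0.036 for TGFBR3 and -0.064 for STRAP, and median centring 0.066 for TGFBR3 and 0.059 for HIPK2, in siRB1 OIS against growing cells.

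With 1 array left out, the values that changed sign were all uncalled ones. In siRB1 OIS against growing cells they ran from -0.46 to 0.055 for SMAD3 205396_at, -2.11 to 0.27 for TGFBR1 206943_at, -0.25 to 0.66 for TGFBR2 207334_s_at, -0.78 to 0.87 for TGFB3 209747_at, -0.019 to 0.24 for GDF11, -0.17 to 0.077 for TGFBR3 and -0.16 to 0.060 for HIPK2. In siControl OIS against growing cells they ran from -0.51 to 0.22 for TGFBR1 206943_at, -0.26 to 0.55 for TGFBR2 207334_s_at, -0.028 to 1.62 for TGFB3 209747_at and -0.43 to 4.89e-04 for RB1. In siRB1 against siControl OIS cells they ran from -0.094 to 0.097 for TGFB1, -0.86 to 0.079 for BMP2 205290_s_at, -0.13 to 0.61 for SMAD3 205396_at, -1.96 to 0.41 for TGFBR1 206943_at, -0.10 to 0.19 for TGFBR1 224793_s_at, -1.68 to 1.36 for TGFBR1 236561_at, -0.39 to 0.52 for TGFBR2 207334_s_at, -0.16 to 0.84 for INHBE, -0.043 to 0.39 for ACVR2B, -0.55 to 0.075 for FSTL3, -0.044 to 0.095 for TGIF1, -0.071 to 0.28 for SKIL and -0.71 to 0.45 for ID1. With 2 arrays per state, signals near the array medians (46 to 51.8) limit what can be detected, and the causes of these changes were not tested.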
